A study of Mus musculus with 6 samples.

Results

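Albumin and 8 further plasma carrier genes of the mouse liver were followed in the liver RNA of wild-type (WT) and Arid2 LKO mice. The 9 genes, Alb, Ttr, Trf, Rbp4, Ahsg, Fetub, Gc, Apoh and Serpina7, were taken by name as albumin and negative acute phase proteins. The rule itself uses no measured value, but the genes were chosen with earlier results of these data known. They are 9 of the 54532 gene identifiers in the deposited tables and 9 of the 11672 genes that passed the filter, 0.5 FPKM or more on average over the 6 libraries, so every one of them was tested. FPKM, the deposited unit, is a read level corrected for exon length and library scale.

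These proteins are made by hepatocytes and secreted into blood, where most of them carry a ligand: fatty acids and many drugs on albumin, thyroid hormone and the retinol carrier on transthyretin, iron on transferrin. In inflammation the liver makes more of one group of secreted proteins, the positive acute phase proteins such as serum amyloid A and fibrinogen, and less of another, the negative ones, of which albumin and transthyretin are the clinical standards. Interleukin 6 acting through the JAK and STAT proteins is a main signal for that switch, and hepatocyte factors of the HNF4, FOXA and C/EBP families drive transcription of these genes in the resting liver.

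The design held 6 liver RNA-seq libraries, 3 labelled Arid2 WT and 3 labelled Arid2 LKO, all from mice given no treatment. ARID2 belongs to PBAF, a complex that remodels chromatin, and the title of the series sets the comparison in the context of fatty liver and the kinase JAK2. The sources used here do not spell out LKO and do not give the promoter behind the deletion or the strain, sex and age of the mice. Nor do they say that each library came from its own mouse, so the p-values rest on a spread between samples that may be technical.

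Depth recovered from the FPKM steps was 13947785 to 18159279 reads per library, and 3 reads on 1 kb of exon corresponded to 0.156 to 0.236 FPKM. Mitochondrial transcripts made up 20.7%, 10.2% and 18.5% of the reads of WT libraries 1, 2 and 3 and 27.6%, 7.72% and 4.76% in LKO libraries 1, 2 and 3. The libraries numbered 1 also held fewer genes with 1 to 5 reads, 2003 in WT and 2368 in LKO, against 3913 to 4263 elsewhere. Arid2 itself did not check the labels: it was at 2.65, 1.74 and 1.79 FPKM in WT and at 2.55, 1.33 and 2.04 FPKM in LKO (limma log2 difference -0.05 ± 0.24 SE, adjusted p = 0.974), and the value sums over the whole gene, deleted exons included. All differences below are therefore between libraries labelled LKO and libraries labelled WT. The liver label was checked on hepatocyte markers, with all 12 listed genes above the filter and a summed level of 23033 to 27985 FPKM in WT and 19837 to 26967 FPKM in LKO.

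Markers of other cells were low beside these levels. Genes of B and plasma cells summed to 22.0 to 66.8 FPKM in WT and to 8.71 to 16.9 FPKM in LKO. Of the 3 tested genes 2 were lower in every LKO library, beside 7.42% of all genes tested. Of the 12 hepatocyte genes 2 were higher and 2 lower in every LKO library, beside 8.0% and 7.42% of all genes tested. Neutrophil and monocyte genes summed to 1.15 to 4.26 FPKM in WT and 3.46 to 16.7 FPKM in LKO, with Ly6g at 0. Of the 4 tested genes 1 was higher in every LKO library, beside 8.0% of all genes tested. Erythroid genes summed to 139 to 330 FPKM in WT and 91.2 to 149 FPKM in LKO. Of the 5 tested genes 1 was lower in every LKO library, beside 7.42% of all genes tested. Of the exocrine pancreas list Prss2, Cpa1, Cpb1, Pnlip, Amy2a5 and Ctrb1 were at 0 in all libraries (sums 3.17 to 14.0 FPKM in WT and 1.95 to 2.95 FPKM in LKO). Of the skeletal muscle list Acta1, Ckm, Myh4 and Mb were at 0 (sums 0.821 to 1.76 and 0.149 to 0.445 FPKM). Sums of the Kupffer cell list overlapped, at 28.5 to 71.5 FPKM in WT and 29.2 to 77.9 FPKM in LKO, and so did those of sinusoidal endothelial cells, at 30.9 to 36.5 and 18.0 to 41.3 FPKM. Sums of the other lists were 50.7 to 58.2 FPKM in WT and 35.2 to 110 FPKM in LKO for stellate cells, 10.3 to 18.1 and 7.06 to 28.3 FPKM for cholangiocytes, 1.53 to 2.68 and 0.714 to 2.66 FPKM for T and NK cells, and 1.37 to 2.81 and 2.67 to 12.04 FPKM for adipocytes, with Lep, Plin1 and Retn at 0. In whole tissue, fewer cells of a type and less RNA per cell cannot be told apart.

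The sequence just before the transcription start is shown for 3 of the carriers, because each holds a match to the C/EBP motif close to its start, and because Serpina7 was the carrier whose libraries separated by genotype. Each line gives the 150 bases before the RefSeq start (build GRCm38.p6), 5′ to 3′ on the strand of the gene, and capitals mark matches to the searched motifs. Alb lies at chr5:90460720-90460869 on the plus strand, Ahsg at chr16:22891865-22892014 on the plus strand and Serpina7 at chrX:139085237-139085386 on the minus strand. None of the 3 stretches touches an annotated exon.
Alb: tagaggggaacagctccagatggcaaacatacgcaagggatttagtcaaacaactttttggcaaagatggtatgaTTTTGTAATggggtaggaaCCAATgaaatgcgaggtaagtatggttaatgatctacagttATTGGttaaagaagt
Ahsg: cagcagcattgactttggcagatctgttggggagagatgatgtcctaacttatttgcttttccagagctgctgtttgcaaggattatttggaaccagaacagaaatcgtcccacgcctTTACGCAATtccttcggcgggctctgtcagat
Serpina7: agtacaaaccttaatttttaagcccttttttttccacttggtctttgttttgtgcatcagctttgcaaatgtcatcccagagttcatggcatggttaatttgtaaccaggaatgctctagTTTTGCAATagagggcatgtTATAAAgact

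Motifs were searched on both strands in the 250 bases before the RefSeq start of 7 of the 9 carriers, and in 32851 promoters in all. Ttr and Trf were not searched, so the counts below do not cover them. The C/EBP motif TTNNGNAAT was present in Alb (positions -75 to -67, counted back from the start), Ahsg (-32 to -24), Serpina7 (-30 to -22) and Apoh, against 10.158% of all promoters. A CCAAT box was found in Alb, Fetub and Gc (33.85% of all promoters), and in Alb it occurs once on each strand within the stretch shown, at -56 to -52 and at -15 to -11. The TATAAA box was present in Fetub, Rbp4 and Serpina7 (12.368%), the FOXA motif TNTTTAC in Apoh (10.904%). Neither the HNF4 motif CAAAGTNCA (1.193%) nor the STAT motif TTCNNNGAA (7.02%) occurred in these 7 windows. The Serpina7 match to TATAAA lies at -10 to -5 from the start used here and at -27 to -22 from a second RefSeq start 17 bases downstream. No match overlapped another in the stretches shown. A match describes letters only, and binding was not measured in these libraries.

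The carriers spanned more than 3 orders of magnitude in level. By mean FPKM over the 6 libraries and leaving out mitochondrial genes, Alb was the most abundant transcript of the liver, Ttr ranked 8, Gc 15, Ahsg 18, Rbp4 19, Apoh 41, Fetub 91, Trf 107 and Serpina7 1683. The lowest Alb library, at 24010 FPKM, was above the highest Ttr library, at 7601 FPKM. Likewise the lowest Ttr library, at 3786 FPKM, was above the highest Gc library, at 3460 FPKM. Ttr did overlap Ahsg, which reached 4029 FPKM in LKO replicate 2. Gc, Ahsg and Rbp4 overlapped each other in turn, while the lowest Rbp4 library, at 1363 FPKM, was just above the highest Apoh library, at 1347 FPKM. Apoh overlapped Fetub and Fetub overlapped Trf, and Serpina7 stood alone at the bottom, at 33.5 FPKM or less.

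None of the 9 carriers differed between the genotypes at an adjusted p under 0.05 (limma-trend with Benjamini-Hochberg adjustment), nor in the voom fit of the recovered reads. In the same test 0.0428% of all genes were called, 1 higher and 4 lower in LKO, so calls were rare throughout the table. At an unadjusted p under 0.05, 1 of the 9 carriers passed, Serpina7, against 9.22% of all genes. Every LKO library was above every WT library for 1 of 9 carriers, again Serpina7, against 8.0% of all genes, and below for 0 of 9, against 7.42% of all genes. The median log2 difference (LKO minus WT) was 0.04 over the carriers, with 5 above 0 and 4 below. Over all genes tested it was 0.03, with 6310 above 0 and 5362 below. The carriers' median was below 0 when values were scaled to total reads (-0.08) or to reads outside the mitochondrial genome (-0.12) and without both libraries numbered 1 (-0.01), WT replicate 1 (-0.08) or LKO replicate 2 (-0.20).

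**Figure D1:**
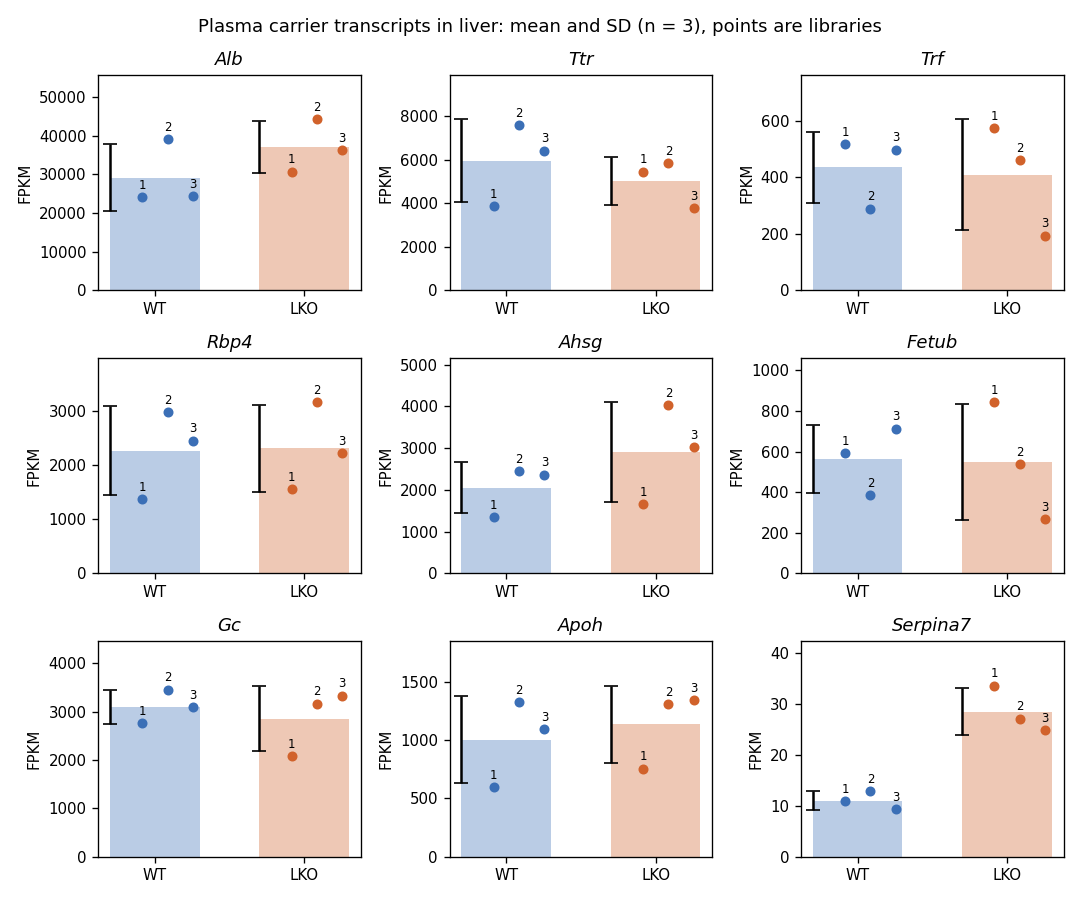
FPKM (vertical axis, linear from 0) of the 9 carrier genes in 3 WT and 3 LKO libraries; bars are means, black lines the SD beside each bar (n = 3), and numbered points the libraries by replicate. WT and LKO points interleave for 8 genes, and for Serpina7 the LKO points at 24.7 to 33.5 FPKM lie above the WT points at 9.28 to 12.8 FPKM.

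Alb encodes albumin, the main protein of plasma and the source of most of its oncotic pressure (ENSMUSG00000029368, chromosome 5, 90460897 to 90476602, plus strand, mm10). It was at 24010, 39174 and 24295 FPKM in WT replicates 1, 2 and 3 and at 30704, 44282 and 36315 FPKM in LKO replicates 1, 2 and 3. The highest library was LKO replicate 2 and the next WT replicate 2, so the groups overlapped, with WT replicates 1 and 3 at the bottom. Means were 29159 ± 8674 and 37101 ± 6823 FPKM (SD, n = 3 each), and the fitted log2 difference was 0.37 ± 0.45 (SE; 95% interval -0.67 to 1.42, limma adjusted p = 0.873). A fold from 0.627 to 2.67 was inside that interval. Alb took 8.09%, 10.4% and 6.76% of non-mitochondrial reads in WT and 9.05%, 10.4% and 9.34% in LKO, which did not separate the groups (exact permutation test, two-sided, p = 0.4, smallest possible 0.1).

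The albumin locus holds relatives of the gene in a row. Gc lies 1003 kb before Alb, and Afp and Afm follow it, with 14.1 kb from Alb to Afp and 10.02 kb from Afp to Afm. Afp, the fetal albumin of the yolk sac and fetal liver, was at 0.955, 1.38 and 0.418 FPKM in WT and 0.140, 0.228 and 0.578 FPKM in LKO, from 82 reads at most. Its groups overlapped through LKO replicate 3, and its log2 difference of -0.53 ± 0.26 (SE) had a limma adjusted p of 0.604. Afm encodes afamin, a vitamin E and Wnt carrier, and was at 59.3, 105 and 64.7 FPKM in WT against 29.1, 79.5 and 78.2 FPKM in LKO (limma adjusted p = 0.879). Afm was added to the genes chosen by rule after its values were seen, to complete the locus.

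Gc encodes the vitamin D binding protein, which also scavenges actin in plasma (ENSMUSG00000035540, chromosome 5, 89417522 to 89457898, minus strand). Its levels were 2758, 3460 and 3097 FPKM in WT and 2078, 3168 and 3333 FPKM in LKO. It varied least of the 9 carriers, with the highest library 1.66 times the lowest, and the single low library was LKO replicate 1. The means of 3105 ± 351 and 2860 ± 682 FPKM gave a log2 difference of -0.14 ± 0.38 (SE; 95% interval -1.02 to 0.74, limma adjusted p = 0.950), which was 0.07 without LKO replicate 1.

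Carriers of thyroid hormone and retinol came next. Ttr encodes transthyretin, which binds thyroxine and holds the retinol binding protein in the circulation (ENSMUSG00000061808, chromosome 18, 20665280 to 20674321, plus strand). It was at 3872, 7601 and 6419 FPKM in WT and 5458, 5846 and 3786 FPKM in LKO. The lowest library was LKO replicate 3, just below WT replicate 1, and WT replicates 2 and 3 were the highest. Means of 5964 ± 1906 and 5030 ± 1094 FPKM gave a log2 difference of -0.21 ± 0.43 (SE; 95% interval -1.23 to 0.80, limma adjusted p = 0.930). The ratio of Alb to Ttr was 6.20, 5.15 and 3.78 in WT and 5.63, 7.58 and 9.59 in LKO, with overlap through LKO replicate 1.

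Rbp4, the plasma retinol carrier that travels with transthyretin (ENSMUSG00000024990, chromosome 19, 38116629 to 38125281, minus strand), was at 1363, 2966 and 2448 FPKM in WT and 1545, 3150 and 2214 FPKM in LKO. In both genotypes the library numbered 2 was the highest and the library numbered 1 the lowest, so the groups interleaved. Means were 2259 ± 818 and 2303 ± 806 FPKM and the log2 difference was 0.04 ± 0.46 (SE; 95% interval -1.04 to 1.12, limma adjusted p = 0.990). That sign is not settled, since it was below 0 when scaled to total reads (-0.08) or to non-mitochondrial reads (-0.12).

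Serpina7 encodes thyroxine binding globulin, a serpin without protease inhibition that carries thyroid hormone (ENSMUSG00000031271, chromosome X, 139079257 to 139085236, minus strand). It was at 10.8, 12.8 and 9.28 FPKM in WT, from 512, 552 and 355 reads. In LKO it was at 33.5, 27.0 and 24.7 FPKM, from 1042, 1034 and 1150 reads. Every LKO library was above every WT library, and Serpina7 was the sole carrier of the 9 with no overlap. The ratio of means, 28.4 ± 4.55 over 11.0 ± 1.77 FPKM, was 2.59, and the log2 difference was 1.30 ± 0.26 (SE; 95% interval 0.68 to 1.91, a fold of 1.60 to 3.75).

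Serpina7 did not pass the adjusted threshold (limma adjusted p = 0.187). Its log2 difference lay between 1.17 and 1.40 when each library was left out in turn, with adjusted p from 0.12 to 0.685. With array quality weights, which let some libraries count more than others, its adjusted p in limma was 0.0123. The weights were 0.532, 1.10 and 5.44 for WT replicates 1, 2 and 3 and 0.299, 2.42 and 0.435 for LKO replicates 1, 2 and 3. WT replicate 3 and LKO replicate 2 thus counted most, and the estimation of the weights stopped before its tolerance was met. The weighted fit called 10.2% of all genes, 621 higher and 574 lower, and 1 of the 9 carriers. The summed markers of B and plasma cells, lower in every LKO library, and those of neutrophils and monocytes were given above, and their part in this difference was not tested.

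**Figure D2:**
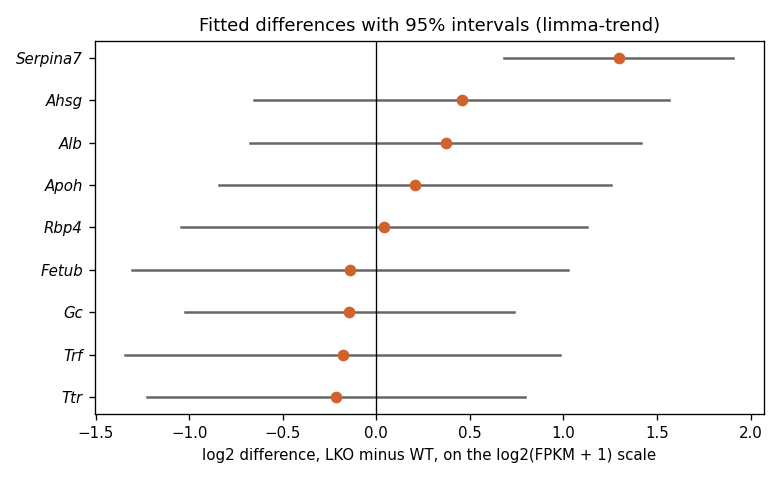
Fitted log2 differences (LKO minus WT, horizontal axis, log2(FPKM + 1) scale) of the 9 carriers in limma-trend; points are estimates and lines 95% confidence intervals over 3 libraries per genotype. The intervals of 8 carriers include 0, and that of Serpina7 runs from 0.68 to 1.91.

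Trf encodes transferrin, which carries iron to cells with transferrin receptors (ENSMUSG00000032554, chromosome 9, 103204001 to 103230444, minus strand). It was at 519, 289 and 499 FPKM in WT and 576, 462 and 193 FPKM in LKO. The 3 lowest libraries were LKO replicate 3, WT replicate 2 and LKO replicate 2, and LKO replicate 1 was the highest, so both extremes were LKO libraries. Means of 436 ± 127 and 410 ± 196 FPKM gave a log2 difference of -0.18 ± 0.50 (SE; 95% interval -1.34 to 0.98, limma adjusted p = 0.953), which was 0.29 without LKO replicate 3.

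Ahsg and Fetub are neighbours on chromosome 16, 18.9 kb apart, and encode the fetuins. Fetuin-A, from Ahsg, keeps calcium phosphate in solution (ENSMUSG00000022868, 22891277 to 22899449, plus strand), and fetuin-B, from Fetub, inhibits the protease that hardens the egg coat (ENSMUSG00000022871, 22918334 to 22939778, plus strand). Ahsg was at 1353, 2441 and 2364 FPKM in WT and 1660, 4029 and 3027 FPKM in LKO. LKO replicates 2 and 3 were above all WT libraries and LKO replicate 1 was below WT replicates 2 and 3. Its log2 difference was 0.46 ± 0.47 (SE; 95% interval -0.65 to 1.57, limma adjusted p = 0.842), the second highest of the carriers.

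Fetub was at 593, 385 and 712 FPKM in WT and 842, 538 and 268 FPKM in LKO. Here LKO replicate 1 was the highest library and LKO replicate 3 the lowest, whereas its neighbour Ahsg was lower in LKO replicate 1 than in LKO replicate 3. The log2 difference was -0.14 ± 0.50 (SE; 95% interval -1.31 to 1.02, limma adjusted p = 0.964), and 0.30 without LKO replicate 3. Hrg, Kng2 and Kng1, cystatin-family genes for histidine-rich glycoprotein and the kininogens, follow Fetub on the same chromosome within gaps of 11.3, 24.2 and 28.4 kb. Kng1 was at 954, 855 and 928 FPKM in WT and 721, 866 and 628 FPKM in LKO (limma log2 difference -0.32 ± 0.32 SE, adjusted p = 0.838).

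Apoh encodes beta-2-glycoprotein I, which binds anionic phospholipids (ENSMUSG00000000049, chromosome 11, 108343354 to 108414396, plus strand). It was at 594, 1326 and 1094 FPKM in WT and 755, 1310 and 1347 FPKM in LKO. Both libraries numbered 1 were lowest and the other 4 lay close together. Means of 1005 ± 374 and 1137 ± 332 FPKM gave a log2 difference of 0.21 ± 0.45 (SE; 95% interval -0.84 to 1.26, limma adjusted p = 0.932). 3 of the carriers share ground with other annotated genes. Ahsg overlaps an antisense gene, and Apoh overlaps Prkca on the opposite strand and Gm11656 on its own strand. No value of these partners reached 1 FPKM. Trf overlaps Gm20425 on its own strand, listed at 0. How reads shared with a partner on the same strand were assigned was not checked. The sources used here do not give the strand setting of the counting, so reads of the opposite-strand partners cannot be told apart.

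Added up, the 9 carriers came to 35073, 57655 and 40937 FPKM in WT and 43652, 62812 and 50507 FPKM in LKO. The mean sum was 1.17 times higher in LKO, at 52324 ± 9708 against 44555 ± 11718 FPKM (SD, n = 3 each), and the exact two-sided permutation test gave p = 0.4, with 0.1 as the smallest p that 3 against 3 allows. Alb made up 59.3% to 68.5% of the sum in WT and 70.3% to 71.9% in LKO, so that its share was higher in each LKO library than in each WT library, a pattern noticed after the values were seen. Without Alb the sums averaged 15396 ± 3863 FPKM in WT and 15223 ± 2931 FPKM in LKO, a ratio of 0.989 (exact permutation p = 1). In reads the 9 genes took 10.7%, 13.6% and 9.92% of all non-mitochondrial reads in WT and 11.7%, 13.5% and 11.9% in LKO (exact permutation p = 0.5).

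The lowest and the highest library were not the same for all carriers. WT replicate 1 was the lowest library for 4 carriers (Alb, Rbp4, Ahsg and Apoh) and LKO replicate 3 for 3 (Ttr, Trf and Fetub). LKO replicate 2 was the highest for Alb, Rbp4 and Ahsg, and LKO replicate 1 for Trf, Fetub and Serpina7. Over all 6 libraries the highest was 3.61 times the lowest for Serpina7, 3.14 times for Fetub, 2.98 times for Trf and Ahsg, 2.31 times for Rbp4, 2.27 times for Apoh, 2.01 times for Ttr, 1.84 times for Alb and 1.66 times for Gc.

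The carriers did not vary together across the libraries. On the log2 scale and relative to the mean of the 6 libraries, LKO replicate 1 was at 0.89 for Serpina7, 0.69 for Fetub and 0.54 for Trf, near the mean for Ttr (0.04) and Alb (-0.07), and at -0.44 for Apoh, -0.49 for Ahsg, -0.49 for Rbp4 and -0.50 for Gc. In LKO replicate 3, Trf was at -1.03, Fetub at -0.95 and Ttr at -0.49, Rbp4 was at 0.02, and Alb, Gc, Ahsg, Apoh and Serpina7 lay between 0.17 and 0.47. Trf and Fetub were thus high in the first and low in the second, and Ahsg, Apoh and Gc the reverse. The mitochondrial share of reads was 27.6% in LKO replicate 1 and 4.76% in LKO replicate 3, the highest and the lowest of the series, and its part in this split was not tested.

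**Figure D3:**
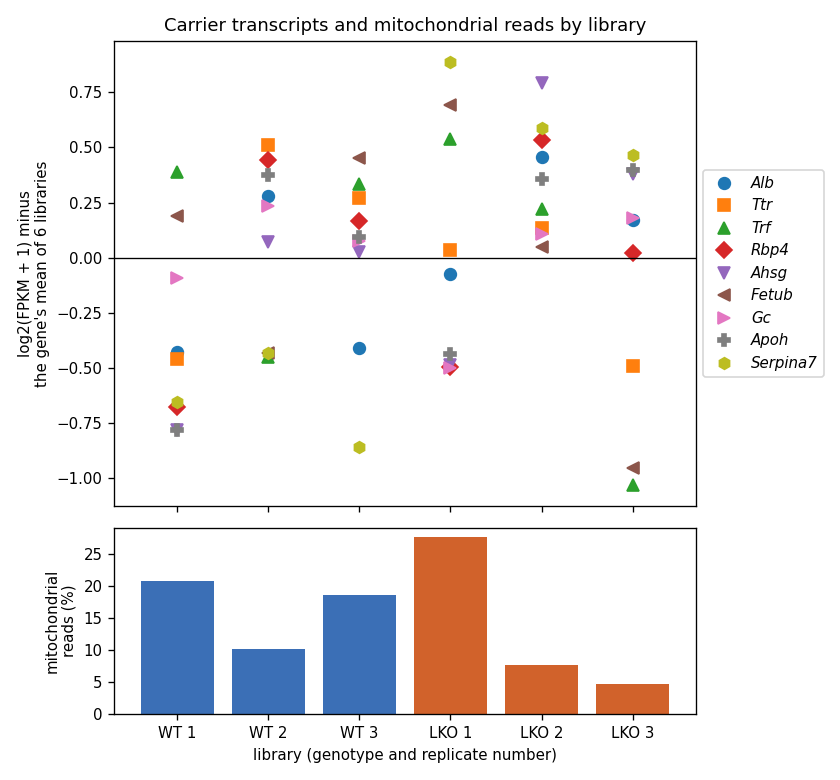
Upper panel: log2(FPKM + 1) of each carrier minus its mean over the 6 libraries (vertical axis) by library, 1 symbol per gene. Lower panel: reads of mitochondrial genes as a percentage of all reads in the same libraries. Trf and Fetub are high in LKO replicate 1 and low in LKO replicate 3, where the mitochondrial share is 27.6% and 4.76%, and the Serpina7 symbols are below 0 in every WT library and above 0 in every LKO library.

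The mean profile of the 9 carriers, each centred on its own mean, was lowest in WT replicate 1 (-0.37) and highest in LKO replicate 2 (0.36), with the other 4 libraries between -0.10 and 0.07. Of 2882 further genes averaging 10 FPKM or more, the 5 with the highest Pearson correlation to that profile over the 6 libraries were Arpc3 (r = 0.999), Hspe1 (0.985), Rps6 (0.985), Bccip (0.983) and Nop16 (0.978). The 6 libraries differ in depth and mitochondrial share as well as genotype, and the likeness is a description of 6 points. Rps6, a ribosomal protein, was at 115, 181 and 165 FPKM in WT and 161, 244 and 162 FPKM in LKO.

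Of the 14 paralogs and chromosomal neighbours of the carriers, 12 were tested and none was called, with 5 above 0 and 7 below and a median log2 difference of -0.05. Serpina10, the protein Z dependent inhibitor of coagulation and a serpin like Serpina7, was at 48.5, 37.9 and 48.0 FPKM in WT and 78.6, 117 and 59.0 FPKM in LKO. All LKO libraries were higher, at a log2 difference of 0.86 ± 0.34 (SE, limma adjusted p = 0.494). Serpina1e, one of the alpha-1-antitrypsin copies, was at 3831, 1833 and 2332 FPKM in WT and 709, 1180 and 199 FPKM in LKO (-2.20 ± 0.68 SE, limma adjusted p = 0.375). Its copies are nearly identical, so how reads were divided among them is uncertain, and Serpina1b was at 1312, 2176 and 1989 FPKM in WT and 1569, 2510 and 1853 FPKM in LKO. Serpina6, the corticosteroid binding globulin, overlapped between the groups at 190, 270 and 292 FPKM in WT and 160, 304 and 424 FPKM in LKO, and was added after its values were seen as the other hormone-carrying serpin.

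None of the positive acute phase genes was called, while most were above 0. Of 28 listed, 27 were tested, 22 were above 0 and 5 below, and the median log2 difference was 1.03 against 0.03 for all genes. At an unadjusted p under 0.05, 9 were higher and 1 lower, beside 9.22% of all genes in either direction. In every LKO library, 8 were above WT, beside 8.0% of all genes, and 1 below, beside 7.42%. By library the list's median, set against the WT mean, was -0.16, -0.14 and 0.10 in WT and 1.04, 1.35 and 0.13 in LKO, so LKO replicate 3 was close to WT replicate 3. The same measure for the 9 carriers was -0.24, 0.30 and 0.19 in WT and -0.07, 0.46 and 0.11 in LKO. LKO replicates 1 and 2 had the highest positive acute phase medians. Of the 9 carriers 1, Gc, was lowest in LKO replicate 1 and 0 were lowest in LKO replicate 2. LKO replicate 1 was next to lowest for Rbp4, Ahsg and Apoh, and highest for Trf, Fetub and Serpina7. LKO replicate 2 was highest for Alb, Rbp4 and Ahsg. A link between the lists was not tested.

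Itih4, an inter-alpha-trypsin inhibitor chain, was the member of that list with the smallest p. It was at 229, 217 and 248 FPKM in WT and 680, 691 and 620 FPKM in LKO, with all 3 LKO libraries above WT (limma log2 difference 1.52 ± 0.29 SE, adjusted p = 0.175). Il1rn, the interleukin 1 receptor antagonist, was at 0.30, 0.421 and 0.197 FPKM in WT and 1.98, 2.31 and 0.894 FPKM in LKO (1.03 ± 0.25 SE, limma adjusted p = 0.275). Lcn2, a siderophore-binding lipocalin, was at 7.81, 0.672 and 2.71 FPKM in WT and 140, 376 and 6.66 FPKM in LKO (4.29 ± 1.36 SE, limma adjusted p = 0.389). For Lcn2, LKO replicate 3 lay below WT replicate 1. Steap4, a metalloreductase, was at 6.30, 15.01 and 16.9 FPKM in WT and 37.5, 206 and 30.8 FPKM in LKO (2.31 ± 0.74 SE, limma adjusted p = 0.392). The 2 most abundant genes of the list overlapped: Hp, haptoglobin, was at 3629, 1877 and 1921 FPKM in WT and 4550, 5789 and 1935 FPKM in LKO, and Hamp, the iron hormone hepcidin, at 3957, 1926 and 1700 FPKM and 5446, 2665 and 1759 FPKM.

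**Figure D4:**
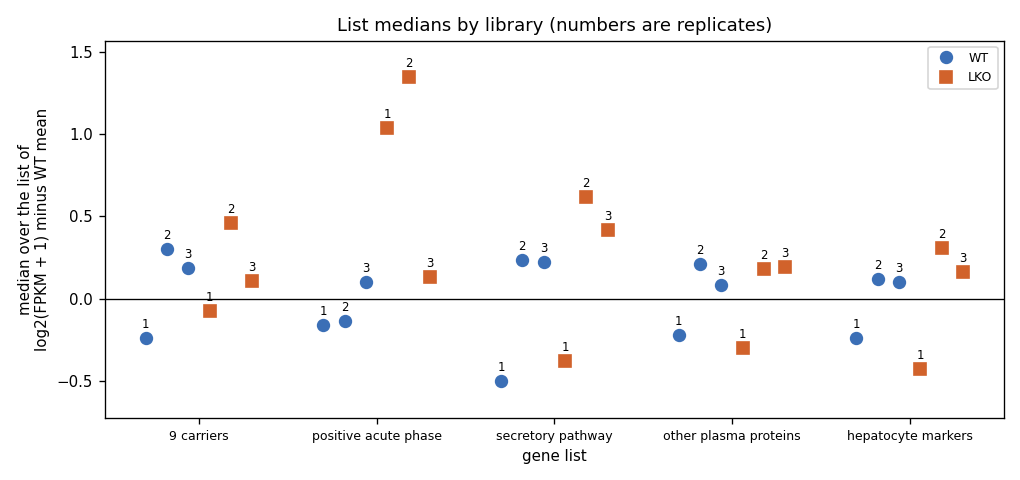
Median over each gene list (horizontal axis) of log2(FPKM + 1) minus the gene's WT mean (vertical axis), 1 point per library, circles WT and squares LKO, numbered by replicate. The 9 carriers run from -0.24 to 0.46 with both genotypes mixed, and the positive acute phase list stands at 1.04 and 1.35 in LKO replicates 1 and 2 and at 0.13 in LKO replicate 3.

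Among 28 tested transcription factors of hepatocyte secretory genes, 13 were above 0 and 15 below, with a median of -0.04, and none was called. At an unadjusted p under 0.05, 4 were higher and 4 lower, beside 9.22% of all genes in either direction. In every LKO library 6 were above WT, beside 8.0% of all genes, and 3 below, beside 7.42%. Dbp encodes the D-site albumin promoter binding protein, a clock-controlled factor named for its site in the Alb promoter. It was at 68.1, 101 and 54.2 FPKM in WT and 7.55, 10.2 and 63.3 FPKM in LKO. LKO replicates 1 and 2 were far below every WT library and LKO replicate 3 lay within the WT range (limma log2 difference -1.99 ± 0.74 SE, adjusted p = 0.469). Nfil3, the repressor that competes for the same sites, was at 4.20, 7.41 and 7.99 FPKM in WT and 24.6, 25.1 and 11.6 FPKM in LKO, higher in every LKO library (1.47 ± 0.38 SE, limma adjusted p = 0.294). Alb in the same 3 LKO libraries was at 30704, 44282 and 36315 FPKM, and a link of Alb to Dbp or Nfil3 was not tested. The sources used here do not give the time of day at which tissue was taken.

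Cebpd, the inflammation-responsive C/EBP factor, was at 3.20, 3.79 and 5.47 FPKM in WT and 11.6, 16.6 and 8.33 FPKM in LKO (limma log2 difference 1.33 ± 0.32 SE, adjusted p = 0.251). Cebpa and Cebpb, the abundant members of the family, overlapped between the groups: Cebpa was at 197, 258 and 145 FPKM in WT and 105, 115 and 279 FPKM in LKO, and Cebpb at 551, 245 and 400 FPKM and 535, 468 and 412 FPKM.

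Genes that handle the carriers' cargo showed no common direction. Of 25 genes for thyroid hormone, retinol, vitamin D and iron, 21 were tested, 11 were above 0 and 10 below, the median was 0.03, and none was called. In every LKO library 2 of the 21 were above WT, beside 8.0% of all genes, and 1 below, beside 7.42%. Slc16a10, a thyroid hormone and aromatic amino acid transporter, was at 7.19, 9.97 and 9.27 FPKM in WT and 13.6, 14.7 and 25.8 FPKM in LKO. It was higher in every LKO library (limma log2 difference 0.91 ± 0.31 SE, adjusted p = 0.427). Stra6l, the liver receptor for retinol bound to RBP4, was at 8.78, 9.73 and 8.87 FPKM in WT and 32.8, 15.5 and 11.4 FPKM in LKO (0.91 ± 0.39 SE, limma adjusted p = 0.535). Thrsp, a thyroid hormone responsive lipogenic gene, overlapped at 523, 375 and 590 FPKM in WT and 124, 394 and 574 FPKM in LKO. Stra6, the retinol transporter of other tissues, and Cyp24a1 were listed at 0 in all 6 libraries.

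Receptors that take up or recycle plasma proteins were more often below 0 than above: 9 of 12 were tested, 2 above 0 and 7 below, with a median of -0.20 and no call. Over all genes tested, 6310 were above 0 and 5362 below. The neonatal Fc receptor, which returns albumin to the blood and is built from Fcgrt and B2m, gave opposite signs for its chains. Fcgrt was at 35.3, 70.5 and 51.0 FPKM in WT and 53.0, 84.3 and 115 FPKM in LKO (limma log2 difference 0.66 ± 0.40 SE, adjusted p = 0.696). B2m was at 2334, 1984 and 2350 FPKM in WT and 1949, 1647 and 1536 FPKM in LKO, below WT in each library (-0.38 ± 0.34 SE, limma adjusted p = 0.808). Asgr1, a chain of the asialoglycoprotein receptor, overlapped at 235, 394 and 348 FPKM in WT and 196, 380 and 369 FPKM in LKO.

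The route by which these proteins leave the cell was slightly above 0 as a list. Of 39 secretory pathway genes 37 were tested. Of these, 30 were above 0 and 7 below, with a median of 0.25. Over all genes tested, 6310 were above 0 and 5362 below, with a median of 0.03. No gene of the list was called in limma, nor did any reach an unadjusted p under 0.05. The list's median by library was -0.50, 0.23 and 0.22 in WT and -0.38, 0.62 and 0.42 in LKO, with both libraries numbered 1 at the bottom. P4hb, protein disulfide isomerase, was at 121, 410 and 331 FPKM in WT and 372, 475 and 438 FPKM in LKO, and its log2 difference of 0.74 ± 0.49 (SE, limma adjusted p = 0.728) was 0.21 without WT replicate 1. Srp68, a signal recognition particle protein, was at 12.8, 17.9 and 16.0 FPKM in WT and 22.4, 28.4 and 18.3 FPKM in LKO (0.53 ± 0.28 SE, limma adjusted p = 0.638).

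Other plasma carriers and binding proteins split evenly, 12 above 0 and 13 below among 25 tested, at a median of -0.01 with no call. Igfals, the subunit that holds insulin-like growth factors in the circulation, was at 40.0, 76.0 and 75.6 FPKM in WT and 11.4, 21.7 and 46.2 FPKM in LKO (limma log2 difference -1.39 ± 0.53 SE, adjusted p = 0.481). Serpinf2, alpha-2-antiplasmin, was at 232, 218 and 223 FPKM in WT and 281, 312 and 391 FPKM in LKO (0.53 ± 0.30 SE, limma adjusted p = 0.656). The apolipoproteins Apoa1 and Apoa2, the most abundant of the list, overlapped, with Apoa1 at 18941, 8200 and 9959 FPKM in WT and 12916, 10409 and 4228 FPKM in LKO. Apoa2 was at 14206, 15407 and 19849 FPKM in WT and 22944, 18458 and 10542 FPKM in LKO, and LKO replicate 3 was the lowest library for both.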

How the data were processed

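Liver RNA of 3 WT and 3 LKO samples was sequenced from NEBNext Ultra libraries, per the labels' protocols. The submitters' processing notes list mm10 and, without roles, DESeq2 1.20.0, featureCounts 1.5.0-p3, HISAT2 2.0.5 and CASAVA. The values deposited by the authors, 1 per gene and library, are FPKM, a unit read from the values: FPKM times merged exon length (GENCODE vM21, which held 54495 identifiers) gave whole reads within 0.05 for 96.0% to 96.3% of values. The deposited library scale followed median-of-ratios size factors (ratio 0.995 to 1.00). No gene above 0 had the same FPKM in a pair of libraries. No per-sample column was left unused.

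The test was limma-trend (limma 3.58.1, R 4.3.3) with robust empirical Bayes on log2(FPKM + 1), genotype only, Benjamini-Hochberg over 11672 genes, threshold 0.05; log2 differences on this scale understate those of low genes. It was tested on simulated data. SDs are over FPKM of 3 libraries; floors cover counting error only. Sums were compared by exact permutation.

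The members, gene lists and motifs were chosen with earlier results of these data known. Named genes are the 9 members and Arid2, up to 4 genes with the smallest p and 2 with the highest mean per list, not all printed, and 5 genes by likeness. Some genes and motifs are not reported here. Alternatives were a replicate block, a filter of 1 FPKM or none, a pseudocount of 0.1, each library or both numbered 1 left out, quantile, total-read and non-mitochondrial scaling, voom on recovered reads, and array weights, whose estimation stopped before its tolerance was met. Promoters are RefSeq, GRCm38.p6. Figures used Python 3.11.15, pandas 2.3.3 and matplotlib 3.10.9.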

Additional observations from a re-analysis of the deposited data

How the results depend on the processing

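Calls over all genes numbered 5 and changed with no filter (1), quantile normalization (3), without both libraries numbered 1 (2) and with array quality weights (1195, with 1 carrier, Serpina7, called), and ranged from 0 to 17 when single libraries were left out: 0 without WT replicate 3, 2 without WT replicate 1, 3 without LKO replicate 1 or 2 and 17 without LKO replicate 3, none of them a carrier. With the replicate block it was 0 (1478 genes at an unadjusted p under 0.05, against 1076 without the block). Whether the numbers pair the samples was not settled. Deviations of same-numbered libraries correlated at 0.49, 0.30 and -0.02. The 0.49 of the libraries numbered 1 was the highest of all pairs of a WT and an LKO library. WT replicate 2 correlated best with LKO replicate 3 (0.45).

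The directions of Alb, Ttr, Ahsg and Serpina7 held under every alternative run. Ttr, however, was close to 0 without WT replicate 2 (-0.012) or LKO replicate 3 (-0.023). Signs turned for Rbp4 without both libraries numbered 1 (-0.029), at total reads (-0.075) and at non-mitochondrial reads (-0.12); Serpina1b under quantile normalization (-0.058) and non-mitochondrial reads (-0.040); Apoa2 under those settings or weights (-0.33 without both numbered 1, -0.10 at total reads, -0.15 at non-mitochondrial reads, -0.094 with weights); Thrsp without both numbered 1 (0.015); and Asgr1 likewise (0.014) and with weights (0.044). Leaving out single libraries turned Trf (-0.49 to 0.29), Rbp4 (-0.29 to 0.30), Fetub (-0.52 to 0.30), Gc (-0.27 to 0.072), Apoh (-0.13 to 0.48), Serpina1b (-0.10 to 0.27), Apoa2 (-0.23 to 0.33), Apoa1 (-0.80 to 0.0037), Hamp (-0.12 to 0.70), Cebpb (-2.4e-05 to 0.58) and Asgr1 (-0.30 to 0.23). The cause was not tested. Scaling to non-mitochondrial reads moved the median of all genes from 0.03 to -0.09. The carriers' median ran from -0.20 to 0.30 with single libraries left out, and the ratio of summed FPKM from 1.06 to 1.38. With 3 libraries a group, a fold of 0.627 to 2.67 for Alb or 0.492 to 1.67 for Gc stayed inside the 95% interval, so differences of that size were not excluded.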

Other observations

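The fibrinogen chains Fga, Fgb and Fgg, which form the clot, were higher in every LKO library without passing the adjusted threshold. They belong to the positive acute phase list and were chosen after their values were seen. Of the 27 tested genes of that list, 8 were above WT in every LKO library, beside 8.0% of all genes. Another 1 was below, beside 7.42%. Fga was at 158, 779 and 508 FPKM in WT and 1103, 2584 and 1114 FPKM in LKO (limma log2 difference 1.88 ± 0.66 SE, adjusted p = 0.440). Fgb was at 485, 632 and 614 FPKM in WT and 1202, 2197 and 756 FPKM in LKO, and Fgg at 514, 1177 and 842 FPKM and 1638, 3952 and 1213 FPKM. In LKO replicate 3, where Trf and Fetub were lowest and Lcn2 lay within the WT range, all 3 chains were still above WT. For Fgg the margin was small, at 1213 FPKM against 1177 FPKM in WT replicate 2.

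Selenop, the selenium carrier of plasma, varied by library number far more than any of the 9 carriers. It was at 74.8 FPKM in WT replicate 1 and 127 FPKM in LKO replicate 1, against 1172 and 410 FPKM in WT replicates 2 and 3 and 1509 and 1883 FPKM in LKO replicates 2 and 3. Cyp2e1, a pericentral hepatocyte enzyme, showed the same low pair, at 938 and 1281 FPKM in the libraries numbered 1 and 3480 to 5069 FPKM in the other 4. These genes were chosen after their values were seen.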
